A study of Mus musculus with 12 samples.

Results

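Osteopontin (Spp1) and 7 other genes of recruited, lipid-handling and alternatively activated macrophages were followed in mouse myocardium after coronary ligation, with and without the adenosine analogue NECA. The 8 genes were chosen by symbol and matched to Ensembl gene identifiers: Spp1 (ENSMUSG00000029304), Gpnmb (ENSMUSG00000029816), Trem2 (ENSMUSG00000023992), Fabp5 (ENSMUSG00000027533), Arg1 (ENSMUSG00000019987), Chil3 (ENSMUSG00000040809), Retnla (ENSMUSG00000061100) and Clec4n (ENSMUSG00000023349). All 8 were found among the 56647 gene rows with a value in every library.

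After an infarct, monocytes enter the dead muscle, become macrophages and take up debris of dying cells, which loads them with lipid. Macrophages of that kind are known in several tissues for Spp1, Gpnmb, Trem2 and Fabp5. Arg1, Chil3 and Retnla are the textbook genes of alternative activation by interleukin 4 and interleukin 13, and Clec4n encodes dectin 2, a C-type lectin of myeloid cells.

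Myocardial tissue of wild type mice was sequenced from the 3′ ends of transcripts by a modified CEL-Seq2 protocol. The groups were 4 mice with NECA delivered locally into the infarcted myocardium (NECA-treated MI), 3 mice with left coronary ligation only in their labels (MI), and 3 mice labelled both sham and vehicle (sham vehicle). No vehicle or delivery is named for the MI mice, so an effect of NECA cannot be told apart from one of its delivery. Strain, age, sex and the time after ligation were not stated in the labels. The labels number the mice as separate animals.

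The 10 shallower libraries held 0.960 to 1.33 M counts (M, 1000000 counts), and MI mice 2 and 3 each had a further, deep library named 1st, of 30.8 and 27.1 M counts, so that deep libraries came from MI mice only. Both libraries of a mouse were summed, and the 1st made up 96.9% and 96.6% of the sums of mice 2 and 3. A count of 0 in a shallower library allowed up to 3.13 CPM (counts per M counts of the library), taken as 3 counts in the smallest of them. These limits, and all counting intervals below, cover counting error only. Ventricular muscle markers were abundant in every mouse, with a summed 50920 to 55720 CPM in NECA-treated MI mice, 43270 to 50770 CPM in MI mice and 49290 to 58340 CPM in sham vehicle mice. Sham vehicle mouse 3 stood apart by all 4 atrial markers, with a summed 6424 CPM. MI mouse 3 had 4241 CPM, of which 4238 CPM were Nppa, a natriuretic peptide gene that strained ventricle also expresses, with Myl4 at 3.03, Myl7 at 0.107 and Sln at 0 CPM, and the other mice had at most 292.6 CPM.

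Spp1 was the only member counted in every infarcted mouse and in no sham vehicle mouse. It encodes osteopontin, a secreted glycoprotein that binds integrins and CD44. Spp1 had 6.36, 17.9, 9.41 and 0.942 CPM in NECA-treated MI mice 1 to 4, 2.66, 3.88 and 32.5 CPM in MI mice 1 to 3, and 0 CPM in each of the 3 sham vehicle mice. Every infarcted mouse had at least 1 Spp1 count, but NECA-treated mouse 4 had only 1, and MI mouse 3 held more than any of the other 6 infarcted mice. The upper 95% counting limits of the 0 counts in sham vehicle mice were 2.77 to 3.16 CPM, above MI mouse 1 and NECA-treated mouse 4. The 2nd library of MI mouse 2 also lay below them, with 1 count and 1.03 CPM. Spp1 averaged 8.65 ± 7.09 CPM in NECA-treated MI mice (SD, n = 4) and 13.02 ± 16.9 CPM in MI mice (SD, n = 3). The limit of 3 counts over the whole sham vehicle group was 0.796 CPM. The Spp1 mean was 10.9 times that limit in NECA-treated MI mice and 16.4 times in MI mice. Without NECA-treated mouse 2 the ratio was 7.0 in NECA-treated MI mice, and without MI mouse 3 it was 4.11 in MI mice. These ratios leave out the spread among infarcted mice and are not lower bounds. For pooled counts, the lower 95% counting limit was 8.70-fold in NECA-treated MI mice, 17.4-fold in MI mice and 3.86-fold in MI mice without mouse 3. The deep libraries mostly set the 2 MI values. MI mouse 3 held 914 of the 1040 Spp1 counts of MI mice, and MI mouse 2 held 123 of the 126 without mouse 3. These limits leave out the spread among mice.

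Gpnmb, a transmembrane glycoprotein of lysosomes and phagocytes, overlapped between the groups. Gpnmb had 19.1, 8.95, 5.99 and 1.88 CPM in NECA-treated MI mice 1 to 4, 4.44, 4.44 and 12.7 CPM in MI mice 1 to 3, and 0.858, 2.26 and 4.72 CPM in sham vehicle mice 1 to 3. NECA-treated mouse 1 was highest, and 4 of 7 infarcted mice lay above every sham vehicle mouse, or 2 of 7 on the TPM scale deposited by the authors. The means were 8.98 ± 7.33 CPM in NECA-treated MI mice (SD, n = 4), 7.18 ± 4.75 CPM in MI mice and 2.61 ± 1.95 CPM in sham vehicle mice (SD, n = 3 each).

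Trem2, a lipid-sensing receptor that signals through the adaptor Tyrobp, was low in every mouse. Trem2 had 7.16, 11.4, 4.28 and 3.77 CPM in NECA-treated MI mice 1 to 4, 4.44, 4.32 and 19.3 CPM in MI mice 1 to 3, and 0.858, 3.01 and 3.14 CPM in sham vehicle mice 1 to 3. The infarcted mice did not overlap the sham vehicle mice, but NECA-treated mouse 4 and sham vehicle mice 2 and 3 each had 4 Trem2 counts, so that the gap between them came from library size. On the deposited TPM scale, 5 of 7 infarcted mice lay above every sham vehicle mouse in Trem2. MI mouse 3 was highest, and the group means were 6.65 ± 3.49 CPM in NECA-treated MI mice (SD, n = 4), 9.34 ± 8.59 CPM in MI mice and 2.34 ± 1.28 CPM in sham vehicle mice (SD, n = 3 each).

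Fabp5, a cytosolic fatty acid binding protein found in macrophages, epithelium and endothelium, showed no such pattern. Fabp5 had 42.9, 52.9, 50.5 and 47.1 CPM in NECA-treated MI mice 1 to 4, 51.5, 44.7 and 68.1 CPM in MI mice 1 to 3, and 23.2, 33.1 and 84.9 CPM in sham vehicle mice 1 to 3. The sham vehicle mice held both the lowest and the highest value, and none of 7 infarcted mice lay above them all. Sham vehicle mice 1 and 2 lay below every infarcted mouse, so that the overlap came from sham vehicle mouse 3. Sham vehicle mouse 3, the highest, also had the highest summed fat cell markers, 1127 CPM, against 190.2 to 562 CPM in the infarcted mice and 205 and 265.3 CPM in the other sham vehicle mice. All 8 fat cell markers were detected in that mouse, and 6 and 4 of the 8, Adipoq among them, were at 0 in sham vehicle mice 1 and 2. Fat cell markers were not the only ones: among sham vehicle mice, mouse 3 was also highest in summed atrial (6424 CPM), fibroblast (1707 CPM) and macrophage and monocyte markers (604.3 CPM). The same held for its B cell and its T and NK cell markers. It was not highest in neutrophil, dendritic cell, endothelium, skeletal muscle or ventricular muscle markers. The part of any of these in the Fabp5 level was not tested.

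Arg1 encodes arginase 1, which splits arginine into ornithine and urea. Arg1 had 5.57, 13.8, 18.0 and 0.942 CPM in NECA-treated MI mice 1 to 4, 1.78, 0.189 and 13.2 CPM in MI mice 1 to 3, and 0, 0.752 and 0 CPM in sham vehicle mice 1 to 3. NECA-treated mice 1 to 3 and MI mouse 3 were high. MI mouse 2 lay below sham vehicle mouse 2, whose level rested on 1 count, the only Arg1 count of that group. Pooled over mice, the rate of Arg1 counts was 36.7 times the sham vehicle rate in NECA-treated MI mice (95% counting interval 6.27 to 1483) and 23.5 times in MI mice (4.19 to 930.5), the pooled MI rate being set mostly by the deep libraries. Without MI mouse 3 the MI rate was 0.918 times the sham vehicle rate, over 8 Arg1 counts (0.123 to 40.7).

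**Figure D1:**
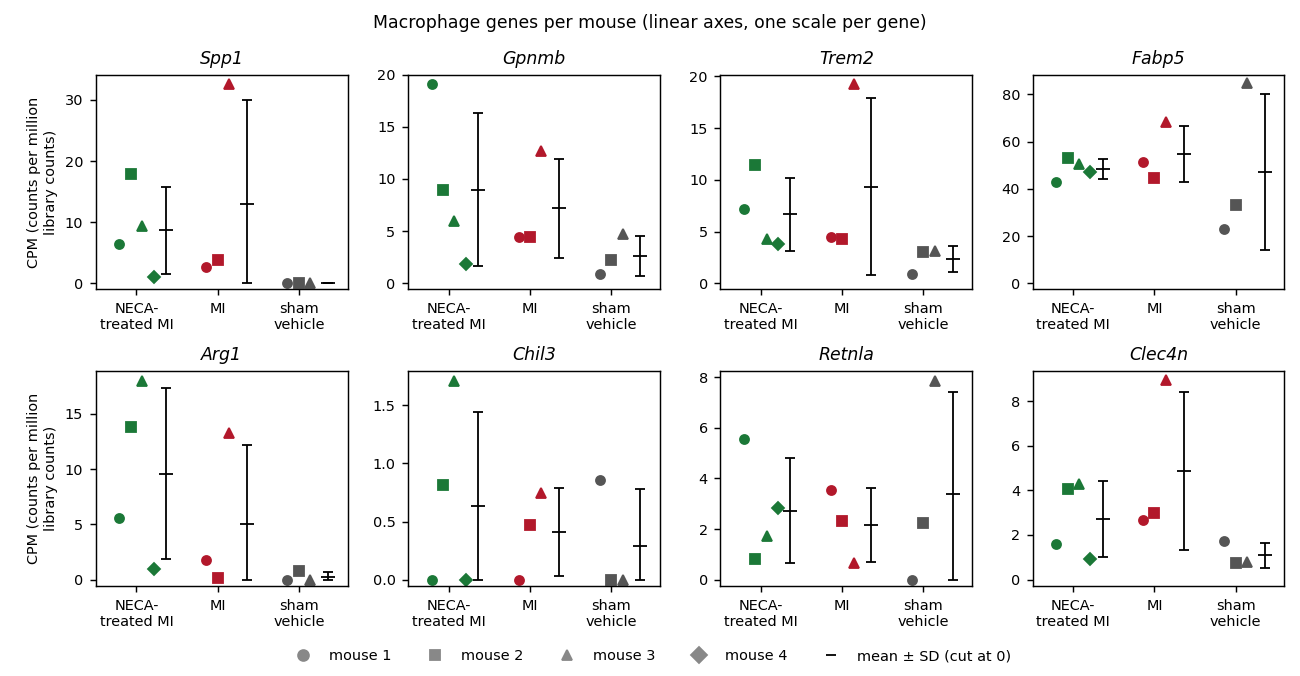
Level of each of the 8 genes in each mouse, as CPM on a linear axis of its own per gene, with NECA-treated MI (green), MI (red) and sham vehicle (grey) mice and the mean ± SD beside each group. Spp1 lies at 0 in the 3 sham vehicle mice and MI mouse 3 is the highest at 32.5 CPM, while Fabp5 and Retnla are highest in sham vehicle mouse 3.

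Chil3, Retnla and Clec4n were near the limit of the shallower libraries. Chil3 encodes a chitinase-like protein without enzyme activity, also called Ym1, Retnla a secreted resistin-like protein, also called Fizz1, and Clec4n a receptor for fungal mannans that signals through Fcer1g. Chil3 had 0, 0.813, 1.71 and 0 CPM in NECA-treated MI mice 1 to 4, 0, 0.473 and 0.747 CPM in MI mice 1 to 3, and 0.858, 0 and 0 CPM in sham vehicle mice 1 to 3. Outside the deep libraries this came to 3 Chil3 counts in the NECA-treated MI mice, 1 in the MI mice and 1 in the sham vehicle mice, and a difference between groups was not detectable at this depth.

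Retnla had 5.57, 0.813, 1.71 and 2.83 CPM in NECA-treated MI mice 1 to 4, 3.55, 2.30 and 0.641 CPM in MI mice 1 to 3, and 0, 2.26 and 7.86 CPM in sham vehicle mice 1 to 3. The highest and the lowest value both lay in the sham vehicle group. Clec4n had 1.59, 4.07, 4.28 and 0.942 CPM in NECA-treated MI mice 1 to 4, 2.66, 2.99 and 8.93 CPM in MI mice 1 to 3, and 1.72, 0.752 and 0.786 CPM in sham vehicle mice 1 to 3. All 3 MI mice lay above the sham vehicle mice in Clec4n, whereas NECA-treated mice 1 and 4 overlapped them. The 2nd library of MI mouse 2, with 1 Clec4n count and 1.03 CPM, also lay below sham vehicle mouse 1. On the deposited TPM scale 2 of 7 infarcted mice, rather than 5, lay above every sham vehicle mouse in Clec4n.

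The upstream sequences of Retnla and Chil3 are shown because both genes are known targets of Stat6, the factor activated by interleukin 4. RefSeq promoter entries of build GRCm38.p6, 250 bases before to 50 after the start, existed for 5 of the 8 genes. They were searched on both strands for the Stat6 spacing TTCNNNNGAA and the general Stat spacing TTCNNNGAA, which were chosen with the members known. A match to TTCNNNNGAA was found for Retnla at -145 (GRCm38.p6 chr16:48842454-48842483, plus strand) and one to TTCNNNGAA for Chil3 at -172 (GRCm38.p6 chr3:106167717-106167746, minus strand), in capitals below.
Retnla: agaatcataaTTCACAAGAAattgctaaac
Chil3: aaatacccacTTCTTAGAAacatagctatc
Of 32851 mouse promoters of the same length, 6.95% hold TTCNNNNGAA and 8.30% hold TTCNNNGAA. The matches describe these letters only. Spp1, Gpnmb and Trem2 had neither spacing in this window.

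The deep libraries gave the rare genes enough counts to compare MI mouse 3 with MI mouse 2 gene by gene. Arg1 had 358 counts in the 1st library of MI mouse 3 and 6 in that of MI mouse 2, or 13.2 and 0.195 CPM, a ratio of 67.6 (95% counting interval 30.8 to 185). Retnla ran the other way, with 15 counts in mouse 3 and 73 in mouse 2, a ratio of 0.233 (0.124 to 0.410). These are 2 mice of 1 group, so the ratios compare those libraries and not conditions.

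The other members were higher in MI mouse 3 by smaller ratios. Spp1 had 875 counts in mouse 3 and 122 in mouse 2, a ratio of 8.13 (6.72 to 9.90), and Trem2 526 and 133, a ratio of 4.48 (3.70 to 5.46). Gpnmb had a ratio of 2.90 (2.37 to 3.57), Clec4n 2.89 (2.27 to 3.71) and Fabp5 1.55 (1.45 to 1.67). Chil3, with 20 and 15 counts, had a ratio of 1.51 whose interval, 0.735 to 3.17, includes equality. The macrophage and monocyte markers summed to 1459 CPM in MI mouse 3 and 511.8 CPM in MI mouse 2, and the fibroblast markers to 11690 and 1207 CPM, and their part in these ratios was not tested.

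The shallower libraries held few counts of either gene. Arg1 and Retnla had 17 and 1 counts in NECA-treated mouse 2 and 21 and 2 counts in NECA-treated mouse 3, against 7 and 7 in NECA-treated mouse 1 and 1 and 3 in NECA-treated mouse 4. Of the MI mice, mouse 1 had 2 and 4 counts, and the 2nd libraries of mice 2 and 3 had 0 and 0 counts and 14 and 3 counts, while sham vehicle mouse 3 had 0 and 10. In the 2nd libraries Retnla was therefore not lower in MI mouse 3 than in MI mouse 2.

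In 14 of the 16 pairs of a gene and a mouse, the rate of the 1st library lay within the exact Poisson interval of the 2nd. The exceptions were Fabp5 in MI mouse 2, where the 1st library had 44.0 CPM and the 2nd 67.9 CPM, and Retnla in MI mouse 3, with 0.553 and 3.13 CPM. The 2nd library of MI mouse 2 held 0 counts of Arg1, Chil3 and Retnla, 3 genes that its 1st library detected at 6, 15 and 73 counts. At the rates of the 1st library only 0.190, 0.474 and 2.31 counts of them were due in the 2nd. Where so few counts are due the Poisson interval is wide, and lying within it says little about agreement of the libraries.

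**Figure D2:**
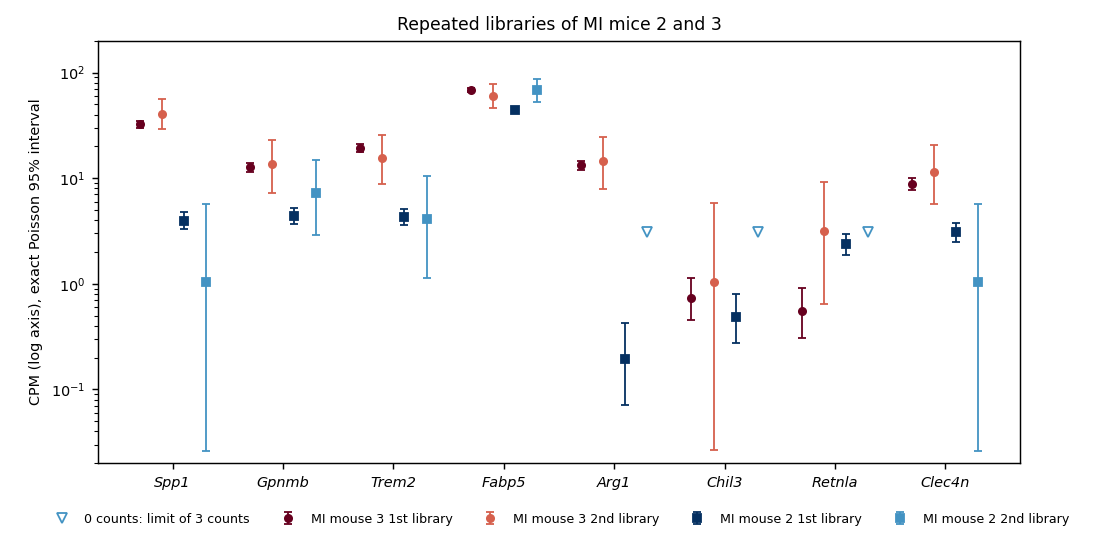
CPM of each gene (log axis) with exact Poisson 95% intervals in the 1st and 2nd libraries of MI mouse 3 (red) and MI mouse 2 (blue), with open triangles at the limit of 3 counts where a library had 0. Arg1 differs most between the mice, 13.2 against 0.195 CPM in the 1st libraries, and in those libraries Retnla is the gene with the lower value in MI mouse 3.

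For the comparison of all infarcted hearts with sham vehicle hearts, counts were tested with edgeR's quasi-likelihood test over all 10 mice, Benjamini-Hochberg adjusted over 9688 genes, with an adjusted p under 0.05 as the threshold. Spp1, Gpnmb, Fabp5 and Arg1 passed the filter on low counts, and Trem2, Chil3, Retnla and Clec4n did not. Without NECA-treated mouse 2 only Fabp5 passed, so Spp1, Gpnmb and Arg1 entered the tests through infarcted mice in which they were high. In all 7 infarcted mice against the sham vehicle mice, 0 of the 4 passed the threshold, against 0.0516% of all tested genes. The log2 fold change was 1.57 ± 0.66 for Gpnmb (SE, edgeR adjusted p = 0.496), 4.59 ± 2.51 for Arg1 (adjusted p = 0.639) and 0.09 ± 0.25 for Fabp5 (adjusted p = 0.946). The Arg1 value was 2.597 without MI mouse 3 and 8.76 without sham vehicle mouse 2. The fitted value of Spp1 was 9.25 ± 3.55 (adjusted p = 0.530). It depends on the prior count because the sham vehicle mice had none, and the ratios above use a limit of 3 counts instead. Spp1 and Trem2 separated all infarcted from all sham vehicle mice, a separation upward that 1.06% of the 24735 genes with a count showed. In a bulk tissue, more cells of a type and more RNA per cell cannot be told apart.

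In MI against sham vehicle mice none of the 4 tested members passed the threshold either, against 0.155% of all tested genes. Gpnmb had a log2 fold change of 1.41 ± 0.70 (edgeR adjusted p = 0.356), Spp1 of 9.55 ± 3.50 (0.303), Arg1 of 4.14 ± 2.70 (0.525) and Fabp5 of 0.16 ± 0.28 (0.840), the values in brackets being adjusted p. The Arg1 value was 0.22 without MI mouse 3 and 8.30 without sham vehicle mouse 2, which holds the only sham vehicle count. The Gpnmb value was 0.81 without MI mouse 3. With the 2nd libraries in place of the sums, so that all libraries were of like depth, Gpnmb had 1.53 ± 0.73 (adjusted p = 0.412) and Arg1 3.76 ± 1.73 (adjusted p = 0.417). The Spp1 mean was then 14.8 ± 22.4 CPM in MI mice (SD, n = 3), 18.6 times the sham vehicle limit. MI mouse 3 set that mean with 40.6 CPM, against 2.66 CPM in MI mouse 1 and 1.03 CPM in MI mouse 2. With the sums, Spp1, Trem2 and Clec4n had no overlap between MI and sham vehicle mice, which 6.99% of genes with a count showed in that direction. For Clec4n this was lost with the 2nd libraries, where MI mouse 2 had 1.03 CPM against 1.72 CPM in sham vehicle mouse 1.

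With no filter on low counts, all 8 members entered the same test, now over 24735 genes. Trem2 then rose in MI against sham vehicle mice, by 1.95 ± 0.53 on the log2 scale (SE, edgeR adjusted p = 0.0243), where 1.4% of all genes passed and the median over all genes was 0.29. Clec4n had 2.17 ± 0.77 (adjusted p = 0.152), Chil3 0.91 ± 1.56 (adjusted p = 0.878) and Retnla -0.84 ± 0.74 (adjusted p = 0.835). With the 2nd libraries in place of the sums, an alternative added after the data were seen, Trem2 had 1.59 ± 0.63 (adjusted p = 0.312) and did not pass. Arg1 did pass, with 3.74 ± 0.99 (adjusted p = 0.0283), where 0.941% of 20308 genes passed. In these libraries MI mice 1 to 3 had 2, 0 and 14 Arg1 counts, so that MI mouse 3 carried the call. With the count filter and without MI mouse 3, Arg1 had 1.50 ± 1.94 in them (adjusted p = 0.928). Which member passed thus differed with the libraries and the filter. Where leaving out sham vehicle mouse 1, 2 or 3 or MI mouse 1 or 2 let Trem2 past the count filter, its adjusted p in MI against sham vehicle mice was 0.0605 to 0.453. Without MI mouse 3, the highest in Trem2, the gene did not pass the count filter. Its pooled rate in the other MI mice was 1.81 times the sham vehicle rate, with a 95% counting interval of 0.927 to 4.04 that includes equality.

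Among NECA-treated MI against sham vehicle mice, 0 of the 4 tested members passed the threshold, and neither did any gene, 0% of those tested. At an unadjusted p under 0.05 edgeR gave 412 genes, and DESeq2 called 4 after adjustment, none of them a member. Log2 fold changes were 1.74 ± 0.72 for Gpnmb, 8.95 ± 3.93 for Spp1, 5.04 ± 2.57 for Arg1 and 0.02 ± 0.28 for Fabp5 (SE, edgeR adjusted p = 0.999 for each). The Arg1 value was 9.21 without sham vehicle mouse 2. Without the count filter, 0.109% of genes and 0 of 8 members passed in this comparison, with Trem2 at 1.43 ± 0.58 (adjusted p = 0.912) and Clec4n at 1.28 ± 0.88 (adjusted p = 0.996). Spp1, Trem2 and Arg1 had no overlap between NECA-treated MI and sham vehicle mice, which 2.81% of genes with a count showed in that direction. For Arg1 the gap lay between 1 count in NECA-treated mouse 4 and 1 count in sham vehicle mouse 2, so that it came from library size, as for Trem2. With the 2nd libraries and no count filter, the alternative added after the data were seen, Arg1 passed at 4.66 ± 0.86 (adjusted p = 0.000233), where 0.212% of genes passed. With the count filter these libraries gave Arg1 4.66 ± 1.47 (adjusted p = 0.7575), which did not pass. The error and p of Arg1 thus depended on the filter. The unfiltered p should not be read as a measure of the spread among NECA-treated MI mice, 0.942 to 18.0 CPM. Both infarcted groups were set against the same 3 sham vehicle mice, so their values are not independent of each other. In the unfiltered fit of all 7 infarcted mice 0.687% of genes and 0 of 8 members passed, with Trem2 at 1.69 ± 0.51 (adjusted p = 0.103). With the 2nd libraries there 0.675% of genes passed, Arg1 among them at 4.205 ± 0.86 (adjusted p = 0.0009). With the count filter Arg1 had 4.21 ± 1.49 in those libraries (adjusted p = 0.383) and did not pass.

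The comparison of NECA-treated MI with MI mice covers NECA together with its delivery into the infarcted heart, and no member passed the test. Of the 4 tested members 0 passed, against 0.0103% of all tested genes, and of the 8 without the filter 0 passed, against 0.299%, or 0.0394% with the 2nd libraries. Log2 fold changes were -0.59 ± 1.03 for Spp1 (SE, edgeR adjusted p = 0.873), 0.33 ± 0.52 for Gpnmb (0.852), 0.90 ± 1.21 for Arg1 (0.826) and -0.14 ± 0.26 for Fabp5 (0.878), the values in brackets being adjusted p. MI mouse 3 set the sign of the first and the size of the third: without it Spp1 had 1.15 ± 0.68 (adjusted p = 0.455) and Arg1 4.76 ± 1.14 (adjusted p = 0.222). Arg1 had 0.18 without MI mouse 2, and Gpnmb had 0.03 without MI mouse 2 and 0.92 without MI mouse 3. With the 2nd libraries only, Spp1 had -0.64 ± 1.21, Gpnmb 0.18 ± 0.56 and Arg1 0.90 ± 0.90 (adjusted p = 0.949, 0.971 and 0.905). In the unfiltered fit, whose median over all genes was -0.25, Trem2 had -0.52 ± 0.41, Clec4n -0.89 ± 0.59, Retnla 0.53 ± 0.71 and Chil3 0.21 ± 1.18. All 8 members overlapped between NECA-treated MI and MI mice, where 5.72% of genes with a count did not overlap in either direction.

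The summed macrophage and monocyte markers overlapped between the groups. All 16 were listed, and they summed to 573.5 to 969.4 CPM in NECA-treated MI mice, 511.8 to 1459 CPM in MI mice and 242.8 to 604.3 CPM in sham vehicle mice. The 1 marker at 0 was Ly6c2, in NECA-treated mouse 1. None of the 13 markers tested passed the threshold. All 13 had a higher fitted level in each infarcted group than in sham vehicle mice, and their median log2 fold change was 0.89 in NECA-treated MI and 1.26 in MI mice against sham vehicle mice, where the median of all genes was -0.01 and 0.00. The summed neutrophil markers were low in every group, at 0 to 12.2 CPM in NECA-treated MI, 4.22 to 11.1 CPM in MI and 3.76 to 9.43 CPM in sham vehicle mice, with Ly6g at 0 throughout.

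Counts of the members were also set against those markers, a scale on which the 0 counts of Spp1 in sham vehicle mice stay 0. Per 1000 macrophage and monocyte marker counts, Spp1 had 9.18, 18.5, 13.4 and 1.64 in NECA-treated MI mice 1 to 4, 3.96, 7.58 and 22.3 in MI mice 1 to 3, and 0 in each sham vehicle mouse. The limit of 3 counts over the 1438 marker counts of the sham vehicle group was 2.09 per 1000, above NECA-treated mouse 4, whose 1.64 rested on 1 count. Arg1 had 8.04, 14.3, 25.6 and 1.64 in NECA-treated MI mice, 2.64, 0.370 and 9.07 in MI mice, and 0, 3.10 and 0 in sham vehicle mice, so that it overlapped. Gpnmb averaged 12.2 ± 10.6 in NECA-treated MI mice (SD, n = 4), 7.99 ± 1.20 in MI mice and 6.66 ± 3.35 in sham vehicle mice (SD, n = 3 each), whereas Trem2 averaged 8.68 ± 2.79 in NECA-treated MI mice, 9.41 ± 3.40 in MI mice and 6.83 ± 4.95 in sham vehicle mice. Sham vehicle mouse 2 was at 12.4 for Trem2, above 6 of the 7 infarcted mice. Fabp5 averaged 67.6 ± 11.97 in NECA-treated MI mice, 70.2 ± 21.1 in MI mice and 118 ± 34.9 in sham vehicle mice. These ratios were not tested.

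**Figure D3:**
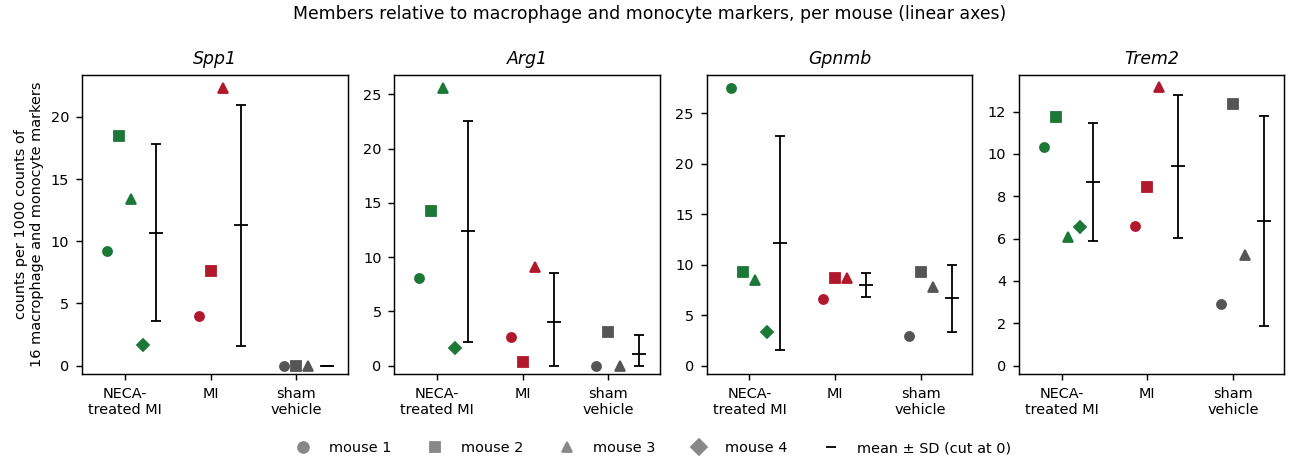
Counts of 4 of the genes per 1000 counts of 16 macrophage and monocyte markers in each mouse (linear axes), with the mean ± SD beside each group. Spp1 is at 0 in the sham vehicle mice, where 3 counts would come to 2.09, and at 1.64 to 22.3 in the infarcted mice, while sham vehicle mouse 2 reaches 12.4 for Trem2 and 9.29 for Gpnmb.

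Genes around the members were read from 5 lists. Of 37 genes of lipid-associated macrophages 32 were tested, and 1, Cd63, rose in MI mice. Cd63, a tetraspanin of late endosomes, averaged 61.0 ± 11.2 CPM in NECA-treated MI mice (SD, n = 4), 93.3 ± 29.6 CPM in MI mice and 33.1 ± 9.46 CPM in sham vehicle mice (SD, n = 3 each). Its log2 fold change was 1.41 ± 0.21 in MI mice (edgeR adjusted p = 0.0106) and 0.83 ± 0.21 in NECA-treated MI mice (adjusted p = 0.903), each against sham vehicle mice, and 1.12 ± 0.19 over all infarcted mice (adjusted p = 0.0294), calls that 0.155% and 0.0516% of all tested genes shared. The Cd63 call in MI mice was lost without sham vehicle mouse 1 or 2 (adjusted p = 0.0948 and 0.145), with limma on the TPM values (0.233), with only the groups compared (0.164), with the mouse number as a block (0.0606) and with the 2nd libraries without MI mouse 3 (0.0684). Over all infarcted mice it was lost in 5 of the 10 fits that left out a mouse, those without sham vehicle mouse 1 or 2 or NECA-treated mouse 1, 2 or 3 (adjusted p up to 0.274), with limma (0.205), with library totals (0.138), with only the groups compared (0.187) and with the block (0.593). Cd68, a lysosomal protein of macrophages, had 1.29 ± 0.45 in MI (adjusted p = 0.206) and 1.60 ± 0.47 in NECA-treated MI mice (adjusted p = 0.999), and Ctsk, the lysosomal protease cathepsin K, had 2.34 ± 0.57 in MI mice (adjusted p = 0.106). In the list 26 of 32 genes were higher in MI than in sham vehicle mice and 25 of 32 in NECA-treated MI mice, with medians of 0.45 and 0.25. The median in MI mice was 0.19 without MI mouse 3, and 0.35 with the 2nd libraries only. Between NECA-treated MI and MI mice 12 were higher and 20 lower, with a median of -0.10. Anxa5, a protein that binds phosphatidylserine, had -0.57 ± 0.21 there (adjusted p = 0.374) and Cd63 -0.58 ± 0.18 (adjusted p = 0.314).

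The receptors of osteopontin and the partners of Trem2 and Clec4n gave no call. Of 9 receptor genes 6 were tested, with medians of 0.18 in NECA-treated MI and 0.12 in MI mice against sham vehicle mice and -0.22 between NECA-treated MI and MI mice. Without MI mouse 3 the median was -0.22 in MI against sham vehicle mice and 0.24 between NECA-treated MI and MI mice. Itgb5, the integrin beta 5 subunit, had a log2 fold change of 0.61 ± 0.29 in MI mice (edgeR adjusted p = 0.356), Itgav, the alpha V subunit, -0.57 ± 0.28 in NECA-treated MI mice (adjusted p = 0.999), and Itga9 0.56 ± 0.21 between NECA-treated MI and MI mice (adjusted p = 0.388).

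Of 17 partners and relatives of immune receptors that signal through ITAM motifs 8 were tested, and all 8 had a higher fitted level in NECA-treated MI and 6 in MI mice than in sham vehicle mice, with medians of 0.57 and 0.92 and 0 past the threshold. Tyrobp, the adaptor of Trem2, averaged 14.7 ± 4.40 CPM in NECA-treated MI mice (SD, n = 4), 21.7 ± 13.6 CPM in MI mice and 6.92 ± 1.69 CPM in sham vehicle mice (SD, n = 3 each). Its log2 fold change was 1.50 ± 0.41 in MI (adjusted p = 0.125) and 1.03 ± 0.43 in NECA-treated MI mice (adjusted p = 0.999). Fcer1g, the adaptor of dectin 2, had 1.51 ± 0.44 in MI (adjusted p = 0.135) and 1.16 ± 0.46 in NECA-treated MI mice (adjusted p = 0.999). Between NECA-treated MI and MI mice the list median was -0.21, and 0.27 without MI mouse 3, with Fcgr2b, the inhibitory Fc receptor, at -0.53 ± 0.31 (adjusted p = 0.537).

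Neither the wider alternative activation list nor the arginine list had a gene past the threshold. Of 20 alternative activation genes 11 were tested, with medians of 0.09 in NECA-treated MI and 0.15 in MI mice against sham vehicle mice and 0.01 between NECA-treated MI and MI mice. Folr2, a folate receptor of resident macrophages, had 0.80 ± 0.53 in NECA-treated MI and 0.99 ± 0.50 in MI mice (adjusted p = 0.999 and 0.371), and Mrc1, the mannose receptor, had 0.83 ± 0.45 in MI mice (adjusted p = 0.417). Klf4, a transcription factor, had 0.29 ± 0.24 in NECA-treated MI mice (adjusted p = 0.999), and the receptor genes Il4ra and Il13ra1 had -0.40 ± 0.34 and -0.39 ± 0.24 between NECA-treated MI and MI mice (adjusted p = 0.693 and 0.568). Of 13 arginine and polyamine genes 10 were tested, with medians of 0.10, 0.11 and -0.01 in those 3 comparisons.

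In the arginine list, Odc1, which makes putrescine from the ornithine that arginase releases, had -0.38 ± 0.18 in NECA-treated MI against sham vehicle mice (edgeR adjusted p = 0.999). Slc7a1, an arginine transporter, had 0.45 ± 0.23 there (adjusted p = 0.999). Sat1, an enzyme of polyamine breakdown, had 0.58 ± 0.25 in MI against sham vehicle mice (adjusted p = 0.282) and -0.43 ± 0.22 between NECA-treated MI and MI mice (adjusted p = 0.494), and Srm, spermidine synthase, 0.68 ± 0.38 in MI mice (adjusted p = 0.411).

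**Figure D4:**
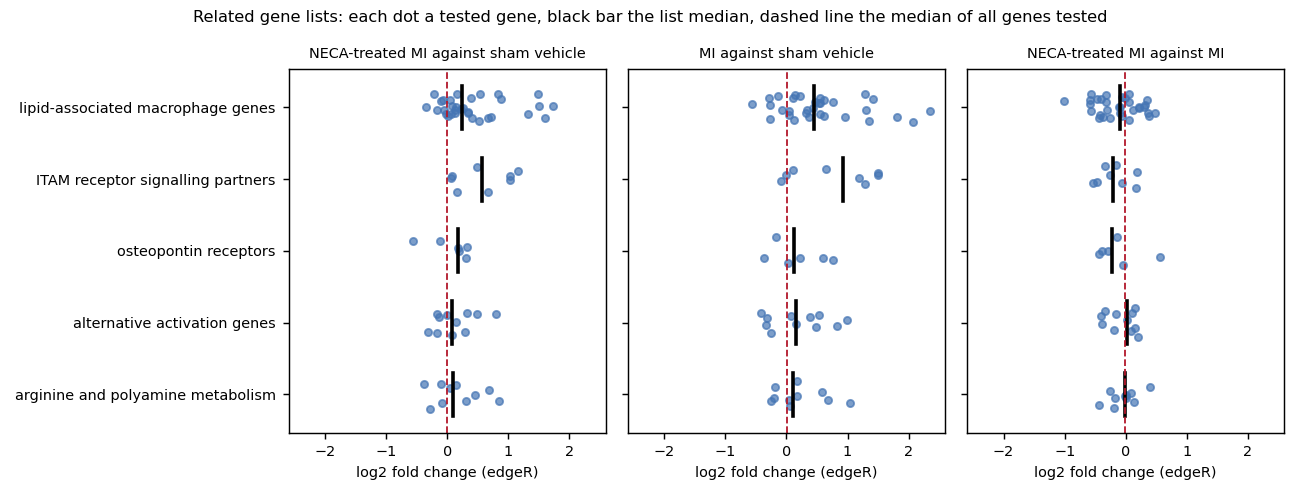
Log2 fold change of each tested gene of the 5 related lists (dots) in 3 comparisons, with the list median as a black bar and the median of all 9688 tested genes as a dashed line. The medians of the lipid-associated list are 0.25, 0.45 and -0.10 and those of the ITAM partners 0.57, 0.92 and -0.21, in the order of the panels.

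Genes most like the tested members were named by the smallest mean absolute difference of centred log2 CPM over the 10 mice, among 8548 genes. For Spp1 they were Saa3, an acute phase protein, at 0.57, Cthrc1, a secreted protein of activated fibroblasts, at 0.68, and Postn, the matricellular protein periostin, at 0.77, against a median of 2.13 over all genes. For Arg1 the nearest was Spp1 at 0.86, then the matrix genes Fn1 at 0.94 and Col1a1 at 0.98, against a median of 1.96. For Gpnmb they were the proliferation marker Mki67 at 0.35, the elastic fibre protein gene Efemp2 at 0.40 and the syndecan gene Sdc1 at 0.42, against 0.93, and for Fabp5 they included Eif1a and Wls at 0.13 each, against 0.40. Saa3 had 1.59, 15.4, 7.70 and 1.88 CPM in NECA-treated MI mice, 9.77, 3.72 and 43.7 CPM in MI mice and 0 CPM in each sham vehicle mouse. The summed fibroblast markers were 1357 to 4549 CPM in NECA-treated MI, 1207 to 11690 CPM in MI and 550.6 to 1707 CPM in sham vehicle mice, and their part in the Spp1 and Arg1 profiles was not tested.

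Near copies were sought only over the last 300 bases of each member's longest protein-coding transcript and were found for 2 members. The GENCODE transcripts searched may differ from the annotation behind the counts, and other transcript ends were not searched. Over the last 300 bases of the transcript, Chil3 matched Chil4 at 89.4% identity, and its counts could be shared with that gene, which was listed at 0 in every library. Retnlb was also at 0, and Retnlg, a neutrophil relative of Retnla, had 11 counts over all libraries. A stretch of 75 bases of Clec4n matched a retained intron of Casp6 at 80% identity, and one of 51 bases a gene listed at 0. Over the stretch searched, the other 6 members had no match of at least 50 bases and 80% identity in another gene.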

How the data were processed

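Expected counts per gene and library, deposited by the authors as whole numbers, were made with STAR and RSEM on GRCm39 after FastQC 0.11.9, per the submitters' processing notes. The authors also deposited log2(TPM + 1), used here for limma and for ranks on the TPM scale. That scale divides by gene length although only 3′ ends were sequenced. Not given in the sources used here are annotation release, strand setting and handling of molecular identifiers. Of 57054 rows, analysis kept the 56647 filled in every library, and 52029 of them matched a GENCODE symbol. CPM are counts per 1000000 counts of a library or mouse.

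The 1st and 2nd libraries of MI mice 2 and 3 were summed. The test was that of edgeR 4.0.16 (R 4.3.3; filterByExpr, TMM, robust quasi-likelihood test, 1 fit over 10 mice, two-sided, Benjamini-Hochberg adjusted p under 0.05). Standard errors are the log2 fold change over the root of F. DESeq2 1.42.0, limma 3.58.1, library totals, no filter, single libraries, only the groups compared, a mouse-number block and each mouse left out were alternatives. Members and lists were chosen with earlier results of these data known. All members are named, and of each list the genes past the threshold or else the 2 of smallest p per comparison. Same-numbered mice did not deviate together, with correlations of -0.248 to 0.199, so the numbers were not taken as pairs. A result of the likeness rule is not reported here.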

Additional observations from a re-analysis of the deposited data

How the results depend on the processing

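Leaving out each mouse in turn gave 0 members past the threshold in every comparison, but the count filter then left Fabp5 alone without NECA-treated mouse 2, Fabp5 and Gpnmb without mouse 3, and no Gpnmb without mouse 1. The genes past it numbered 0 to 2 for NECA-treated MI against sham vehicle, 0 to 306 for MI against sham vehicle, 0 to 121 for NECA-treated MI against MI and 0 to 33 for all infarcted hearts against sham vehicle, where the counts with all mice were 0, 15, 1 and 5. In that order of comparisons they were 27, 346, 74 and 170 with no count filter, 4, 103, 9 and 21 with DESeq2, and 1, 7, 0 and 10 with the 2nd libraries only. They were 7, 0 and 3 for MI against sham vehicle, NECA-treated MI against MI and all infarcted hearts with library totals, and 0, 0 and 1 with limma. With only the groups compared they were 7, 0 and 3 for NECA-treated MI, MI and all infarcted hearts against sham vehicle, and for MI the 1st libraries gave 9. With the mouse number as a block they were 5 for MI against sham vehicle, 0 for NECA-treated MI against MI and 1 for all infarcted hearts, and the block turned Gpnmb to -0.0037 and -2.14 in NECA-treated MI against sham vehicle and against MI, and Arg1 to -2.88 against MI. Of the alternatives chosen after seeing the data, the 2nd libraries with no filter gave 43, 191, 8 and 137 genes and without MI mouse 3 they gave 7, 1, 0 and 11. Members past the threshold were 1 with no filter (Trem2, MI against sham vehicle) and 1 with the 2nd libraries and no filter (Arg1, each comparison with sham vehicle). Of the fits that left out a mouse, Fabp5 was highest without sham vehicle mouse 3. It was then 0.63, 0.76 and 0.70 for NECA-treated MI, MI and all infarcted hearts against sham vehicle (edgeR adjusted p = 0.723, 0.123 and 0.231). Fabp5 changed sign without sham vehicle mouse 1 or 2, at -0.25 and -0.15 for NECA-treated MI, -0.098 and -0.0014 for MI and -0.17 and -0.074 for all infarcted hearts. For NECA-treated MI it also did so without NECA-treated mouse 2 or 3, at -0.0042 and -0.0012. Spp1 in NECA-treated MI against MI was -1.11 without MI mouse 2, 1.15 without MI mouse 3 and 2.09 with the 2nd libraries and without that mouse. The cause of these shifts was not tested. Of 296 member values 280 kept direction and side of the threshold, and 10 further ones of DESeq2 had no adjusted p. Among those 10 were Spp1, Gpnmb and Arg1 in MI and in all infarcted hearts against sham vehicle, which DESeq2 therefore could not call. The unadjusted DESeq2 p of Spp1 there was 0.00029 and 0.00015. Trem2, Chil3, Retnla and Clec4n are limited by few counts.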
